A study of Mus musculus with 8 samples.

Results

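Leukotrienes and prostaglandins are lipid mediators made from arachidonic acid, and 9 genes that encode enzymes or helper proteins of their synthesis were examined in mouse medullary thymic epithelial cells (mTECs): Alox5, Alox5ap, Ltc4s, Lta4h, Ptgs1, Ptgs2, Hpgds, Ptges and Tbxas1. Every probe carrying 1 of these symbols was taken, with no use of its measured value. Of the 9 genes, 8 had a probe, with 17 probes in all, among 46089 probes and 22446 named genes on the arrays. Ptgs1 had no probe in the table and is not analysed here. A gene was tested if at least 1 probe lay above the array background in both arrays of at least 1 group, which 7 members did, through 13 probes. The single probe of Lta4h lay above background on 0 of 8 arrays, so Lta4h was not tested.

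The cells were sorted by surface CD80, a costimulatory protein that is high on mature mTECs, giving a CD80low and a CD80high fraction. They came from mice lacking Hipk2, a nuclear serine/threonine kinase, in thymic epithelial cells, and from wildtype control mice of the same matings. The 2 genotypes and the 2 subsets make 4 groups, each with 2 arrays that the labels call biological replicates. The driver of the deletion, the deleted part of the gene, and the age, sex and number of mice behind each array are not given in the sources used here, and no other allele or agent is named. P-values below therefore measure the spread between these arrays. Values below are log2 intensities after background correction and normalisation, a difference of 1 being a 2-fold difference. Every difference was tested with limma in 1 fit over all arrays, and p-values were adjusted by Benjamini-Hochberg over 14392 genes. A gene was called at an adjusted p under 0.05.

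In the leukotriene branch, 5-lipoxygenase (Alox5) oxidises arachidonic acid, which the membrane protein FLAP (Alox5ap) presents to it. The product, leukotriene A4, is turned into leukotriene C4 by Ltc4s or into leukotriene B4 by Lta4h. In the prostaglandin branch, the cyclooxygenases Ptgs1 and Ptgs2 make prostaglandin H2, from which Hpgds makes prostaglandin D2, Ptges makes prostaglandin E2 and Tbxas1 makes thromboxane A2. Alox5, Alox5ap, Ltc4s, Ptgs1 and Hpgds are known to be expressed by tuft cells, chemosensory epithelial cells of which the thymic medulla holds a population, and also by mast cells and other blood cells. These 5 genes are called the tuft-linked members below, and Lta4h, Ptgs2, Ptges and Tbxas1 the other members.

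Promoter sequence is shown for 4 members, Alox5, Ltc4s and Hpgds of the tuft-linked and Ptges of the other members, because the contrast between these genes runs through the results. Each runs from 250 bases before to 50 after the start used by the RefSeq promoter set, in assembly GRCm38.p6 on the minus strand. For Hpgds, Ptges, Ptgs1 and Tbxas1 the whole window lies inside the RefSeq span of the gene. Distances below are from the start used, which for these genes is not the outer end of the span. Of the 9 members, 8 matched the RefSeq promoter table by symbol, all but Alox5ap. The stretches are chr6:116461129-116461428 for Alox5, chr11:50238483-50238782 for Ltc4s, chr6:65144681-65144980 for Hpgds and chr2:30903248-30903547 for Ptges. Capitals mark matches to 3 letter strings, the octamer ATGCAAAT bound by POU factors, the ETS-type string GAGGAAGT and the GC box GGGCGG.
Alox5: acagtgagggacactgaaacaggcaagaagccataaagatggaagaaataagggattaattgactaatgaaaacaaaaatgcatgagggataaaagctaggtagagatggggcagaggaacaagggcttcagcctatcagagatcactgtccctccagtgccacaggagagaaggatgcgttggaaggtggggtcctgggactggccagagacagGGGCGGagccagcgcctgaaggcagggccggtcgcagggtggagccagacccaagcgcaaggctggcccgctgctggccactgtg
Ltc4s: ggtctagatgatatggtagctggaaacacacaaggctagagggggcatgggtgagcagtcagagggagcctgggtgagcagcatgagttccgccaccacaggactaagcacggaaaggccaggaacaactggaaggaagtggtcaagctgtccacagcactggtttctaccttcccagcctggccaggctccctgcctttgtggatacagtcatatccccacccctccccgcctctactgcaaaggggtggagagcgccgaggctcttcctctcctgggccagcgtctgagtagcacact
Hpgds: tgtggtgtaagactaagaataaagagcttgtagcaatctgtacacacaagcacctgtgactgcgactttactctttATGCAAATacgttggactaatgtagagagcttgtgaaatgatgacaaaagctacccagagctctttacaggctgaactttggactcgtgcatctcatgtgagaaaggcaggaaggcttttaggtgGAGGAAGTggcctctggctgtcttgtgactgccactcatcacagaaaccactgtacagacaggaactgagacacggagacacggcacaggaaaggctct
Ptges: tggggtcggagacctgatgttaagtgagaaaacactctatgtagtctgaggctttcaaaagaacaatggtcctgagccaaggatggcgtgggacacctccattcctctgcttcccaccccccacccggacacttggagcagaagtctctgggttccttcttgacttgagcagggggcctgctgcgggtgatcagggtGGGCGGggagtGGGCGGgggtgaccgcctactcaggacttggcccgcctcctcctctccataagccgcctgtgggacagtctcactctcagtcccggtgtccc
Both strands were searched for the 3 strings and for TATAAA, and no 2 different strings overlapped in the stretches shown. Hpgds held the octamer with its first base 174 bases before the start and GAGGAAGT 49 bases before it. The octamer occurred in 1.74% of 32851 mouse promoters of the same length and in 1 of the 8 member promoters. GAGGAAGT occurred in 3.2% of all promoters and in 2 members, Hpgds and Ptgs1. GGGCGG occurred in 35.7% of all promoters and in 3 members, Alox5 at 35, Ptges at 42 and 53, and Ptgs2 at 170 bases before the start. TATAAA, present in 13.6% of all promoters, occurred in Tbxas1 alone among the members. No string searched matched in the Ltc4s stretch. A match describes the letters of the window and is not evidence of binding.

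On every array, 44.3% to 49.8% of the probes lay above background, and the probe values of replicates correlated at r = 0.965 to 0.984 over all probes. Replicates lay further apart in CD80low cells, where the SD of the replicate difference was 0.475 in control and 0.463 in knockout, than in CD80high cells, where it was 0.299 and 0.354. Because the fit uses 1 shared spread, p-values within CD80low cells may be too low. All 10 mTEC markers had a tested probe, with Krt5 and Aire above background on all 8 arrays. Epcam lay near background, at 4.88 to 5.59, and was above it on only 5 of 8 arrays. Hipk2 itself had 2 tested probes. In CD80low cells the first read 7.03 and 7.52 for control and 7.20 and 7.12 for knockout. The second read 6.62 and 6.46 for control and 5.79 and 6.26 for knockout, lower without overlap in CD80low (-0.51) and in CD80high cells (-0.19). Both probes gave adjusted p-values of 0.705 or more by limma in either subset. Without knowing which part of Hipk2 was deleted, these probes do not check the genotype labels.

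**Figure D1:**
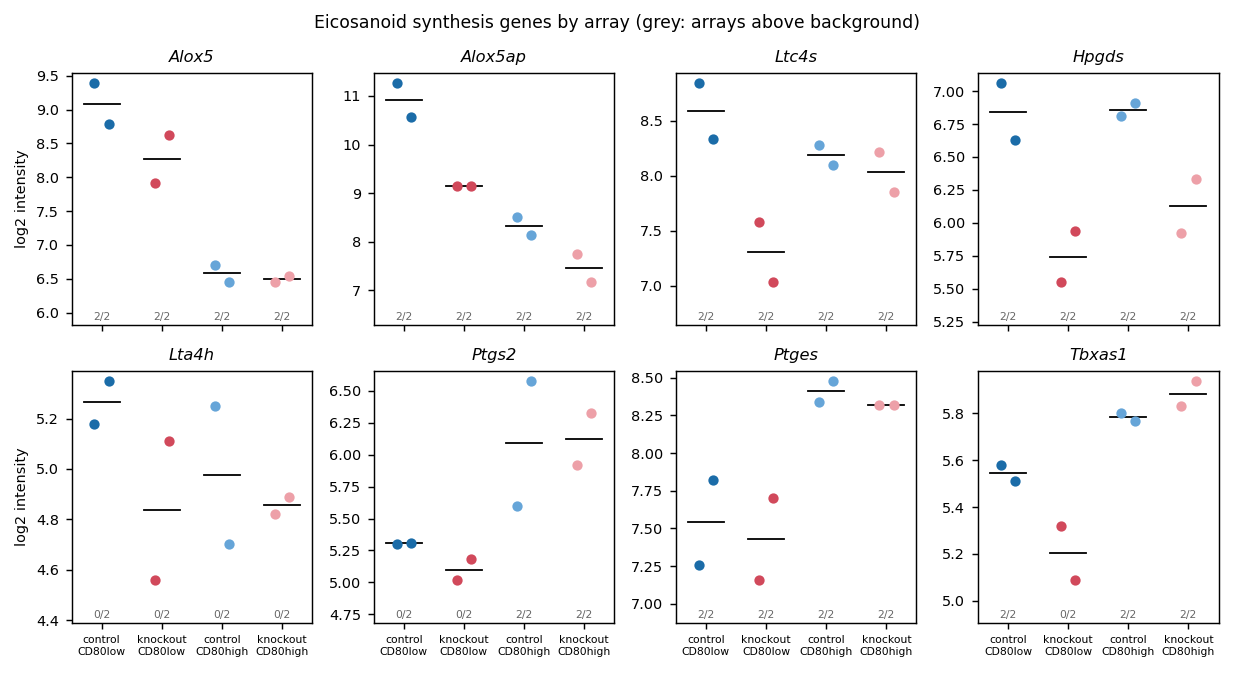
Log2 intensity (vertical axis, a separate range for each panel) of the probe that stands for each of the 8 measured members, in the 4 groups of 2 arrays on the horizontal axis. Points are arrays, lines are group means, and the grey fraction gives the arrays above background. Alox5ap steps down over the 4 groups, Ltc4s is lowest in knockout CD80low cells, Ptges is higher in CD80high cells, and Lta4h is above background on no array.

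Alox5ap read 11.26 and 10.56 in control CD80low cells, 9.14 and 9.14 in knockout CD80low, 8.50 and 8.14 in control CD80high and 7.76 and 7.17 in knockout CD80high. The 4 groups did not overlap and stood in that order, with the knockout below the control in each subset and CD80high below CD80low in each genotype. As deposited, before any further scaling, the same arrays held 2520, 1590, 633, 634, 434, 349, 287 and 216 intensity units in that order. The second probe of Alox5ap kept the same order of group means, with no overlap between neighbouring groups, at 10.99 and 9.97, 8.96 and 8.82, 8.30 and 7.51, and 7.38 and 6.69.

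Alox5, which encodes the lipoxygenase that FLAP serves, read 9.39 and 8.78 in control CD80low cells, 7.92 and 8.63 in knockout CD80low, 6.71 and 6.46 in control CD80high and 6.45 and 6.54 in knockout CD80high. Its CD80low arrays stood well above its CD80high arrays in both genotypes. Knockout CD80low lay below control CD80low by only 0.15 between the nearest arrays, and the 2 CD80high groups overlapped.

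Ltc4s, the leukotriene C4 synthase, behaved differently across subsets. It read 8.84 and 8.33 in control CD80low cells, 7.58 and 7.03 in knockout CD80low, 8.28 and 8.10 in control CD80high and 8.21 and 7.85 in knockout CD80high. Both knockout CD80low arrays lay below all 6 others, and the CD80high groups of the 2 genotypes overlapped.

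Hpgds, the hematopoietic prostaglandin D synthase, read 7.06 and 6.63 in control CD80low cells, 5.55 and 5.94 in knockout CD80low, 6.81 and 6.91 in control CD80high and 5.92 and 6.33 in knockout CD80high. Its 4 control arrays all lay above its 4 knockout arrays, and within a genotype the subsets overlapped. The second probe gave 6.14 and 6.50, 5.34 and 5.29, 6.31 and 6.68, and 5.92 and 6.26, and lay above background in every group but knockout CD80low.

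Among the other members, Ptges, the inducible prostaglandin E synthase, read 7.26 and 7.82 in control CD80low cells, 7.16 and 7.70 in knockout CD80low, 8.34 and 8.48 in control CD80high and 8.32 and 8.32 in knockout CD80high. All CD80high arrays lay above all CD80low arrays, while the genotypes overlapped in CD80low cells and differed by 0.02 between nearest arrays in CD80high cells.

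Ptgs2, the inducible cyclooxygenase, was above background in CD80high cells only, where it read 5.60 and 6.58 in control and 5.92 and 6.33 in knockout. The CD80low arrays read 5.30 and 5.31 in control and 5.02 and 5.18 in knockout, all not well above background. Ptgs2 thus entered the test through the subset in which it is higher, and its second probe lay above background on no array.

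Tbxas1, the thromboxane synthase, lay near background throughout, at 5.58 and 5.51 in control CD80low cells, 5.32 and 5.09 in knockout CD80low, 5.80 and 5.77 in control CD80high and 5.83 and 5.94 in knockout CD80high. The knockout CD80low arrays were the lowest and not well above background. Of its 4 probes, 2 were tested. Lta4h, the leukotriene A4 hydrolase, read between 4.56 and 5.35 over all arrays. Its knockout CD80low arrays (4.56 and 5.11) lay below its control CD80low arrays (5.18 and 5.35) and its other groups overlapped, but none of these values was above background.

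The comparison of knockout with control CD80low cells asks how the loss of Hipk2 from thymic epithelium bears on these genes in the less mature mTECs. Of the 7 tested members 0 were called, beside 1 gene of all tested (0.00695%). At an unadjusted p under 0.05, however, 4 of the 7 were lower in knockout cells, against 4.34% of all tested genes, and these 4 were the tuft-linked members. Arrays did not overlap, with the knockout lower, for 6 of the 7 (all but Ptges), against 15.7% of all tested genes; among the 6, Ptgs2 was at background in both genotypes. The median difference was -1.19 over the 4 tuft-linked members, -0.20 over the 3 other members and 0.01 over all genes. Of those 3 only Ptges had signal above background in every CD80low array, so the contrast between the sets rests on that gene.

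Alox5ap differed most, by -1.77 ± 0.28 (log2, SE; 95% interval -2.39 to -1.15), a 3.41-fold lower level that ranked 11 of 14392 genes by p (limma, unadjusted p = 8.21e-05, adjusted p = 0.106). With this adjusted p the difference missed the threshold. It passed under 4 other ways of fitting or scaling the same arrays, at adjusted p-values of 0.0435 with median scaling, 0.028 with a trended and robust prior, 0.0392 with a replicate block and 0.0213 with a replicate block within each subset. It also passed without control CD80low replicate 2, at -2.12 and an adjusted p of 0.0387. Over all alternatives the difference ran from -2.12 to -1.42 and the adjusted p from 0.0213 to 0.747, the highest with only the 4 CD80low arrays in the fit.

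Ltc4s differed by -1.28 ± 0.258 (SE; interval -1.86 to -0.71), a 2.43-fold lower level in knockout CD80low cells, with a limma adjusted p of 0.177. It passed under the replicate block within each subset alone, at an adjusted p of 0.0299. Hpgds differed by -1.10 ± 0.238 (SE; interval -1.63 to -0.57), 2.15-fold, with an adjusted p of 0.191, and its second probe differed by -1.01. The Hpgds difference was -0.59 with no background correction and from the deposited values, and -0.69 without both CD80low arrays of replicate 1. For Alox5 the difference was -0.81 ± 0.278 (SE; interval -1.43 to -0.20), 1.76-fold, with an adjusted p of 0.536, and all 3 of its probes gave between -0.81 and -0.73. Without both CD80low arrays of replicate 1 the Alox5 difference was -0.16, and without the control or the knockout array of replicate 1 alone it was -0.51 and -0.46.

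Estimates for the other members were nearer 0. Ptgs2 gave -0.20 (interval -0.86 to 0.45), Ptges -0.11 (interval -0.66 to 0.44) and Tbxas1 -0.34 (interval -0.75 to 0.08), with limma adjusted p-values of 1, 1 and 0.893. Ptgs2 was below background in both groups. For Tbxas1 the bound was 1.1-fold higher in control CD80low cells. A bound takes no account of the spread between arrays, and the Tbxas1 interval includes 0. The second tested probe of Tbxas1 gave 0.12, opposite in sign to the first. At such signals a lower level in knockout cells was not detectable for Ptgs2 and hardly so for Tbxas1, whatever their intervals. Of the other members Ptges alone was above background on all CD80low arrays, and its interval does not reach the estimates for the 4 tuft-linked members.

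**Figure D2:**
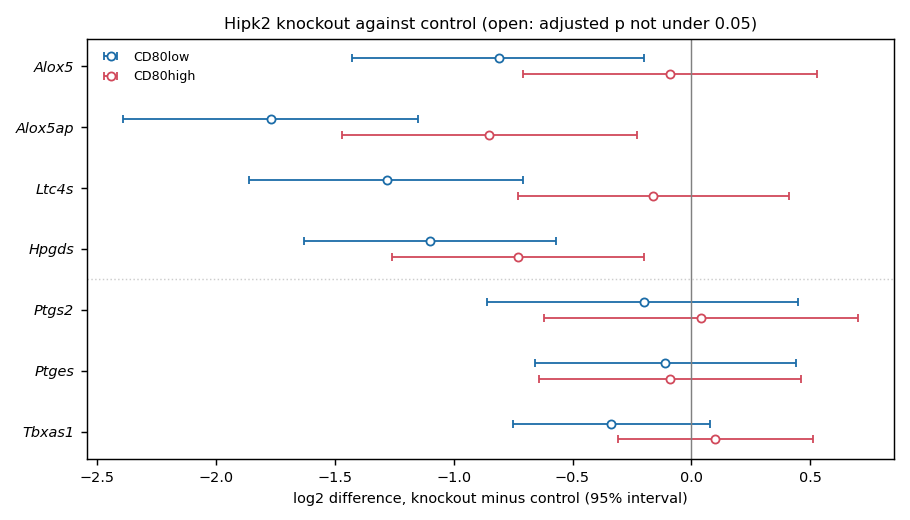
Knockout minus control log2 difference (horizontal axis, with its 95% interval) of the 7 tested members in CD80low (blue) and CD80high cells (red). Open points mark an adjusted p of 0.05 or more, which holds for every point. In CD80low cells the intervals of the 4 tuft-linked genes (above the dotted line) lie below 0 and those of the 3 other genes include 0; Ptgs2 in both genotypes and Tbxas1 in knockout were not above background there.

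Among the marker lists examined, the tuft cell list had the largest median genotype difference in CD80low cells. Of its genes 17 of 19 had a probe, 15 were tested, and Pou2f3, a defining transcription factor, was above background on no array. Single genes of other lists fell too, among them Cldn3 of the mTEC list (-0.96) and Kit of the mast cell list (-0.83). Il17rb (-0.59) and Sucnr1 (-0.57) of the tuft list fell less. Sucnr1 lay near background in CD80low arrays, at 4.57 to 5.51, so a larger fall was hardly detectable for it. In CD80low cells the summed intensity of the tuft list over background was 18222 and 10536 for control and 4926 and 4564 for knockout arrays. In CD80high cells it was 3192 and 2729 for control and 2672 and 2218 for knockout arrays. All 15 tested tuft markers had a lower mean in knockout CD80low cells, with a median of -1.37. Of them 0 were called by limma, against 0.00695% of all tested genes. Lower at an unadjusted p under 0.05 were 13, against 4.34% of all tested genes. In these bulk samples, fewer cells of a type and less RNA per cell cannot be told apart.

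Marker lists of other cells that can express these enzymes had median genotype differences nearer 0 in CD80low cells, from -0.13 for mast cells and for platelets to 0.12 for myeloid cells. Some of these markers were not above background there. Mcpt4, Tpsb2 and Fcer1a of the mast cell list read 4.25 to 5.41 in CD80low arrays. For such genes a lower level in knockout cells was not detectable, which limits what these medians show. The mast cell and basophil list (12 of 12 with a probe, 11 tested) summed to 1382 to 1579 in control and 902 to 1429 in knockout CD80low cells. The myeloid list (15 of 15 with a probe; Itgax, Ccr2 and Clec9a never above background) summed to 1002 to 1026 in control and 1323 to 1419 in knockout CD80low cells. For eosinophils (5 of 7 with a probe; Siglecf and Ccr3 never above background) the sums were 142 to 196 and 96 to 221, and for platelets (8 of 9 with a probe; Itgb3 never above background) 86 in both control arrays and 41 to 70 in knockout. Thymocyte and erythroid markers followed the replicate number, not the genotype. Thymocyte sums were 14054 and 15575 in replicate 1 against 2098 and 2253 in replicate 2 of control and knockout CD80low cells, with Cd8a and Rag2 never above background. Erythroid sums were 8538 and 4842 against 319 and 468. The part of any of these cells in the members' differences was not tested.

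**Figure D3:**
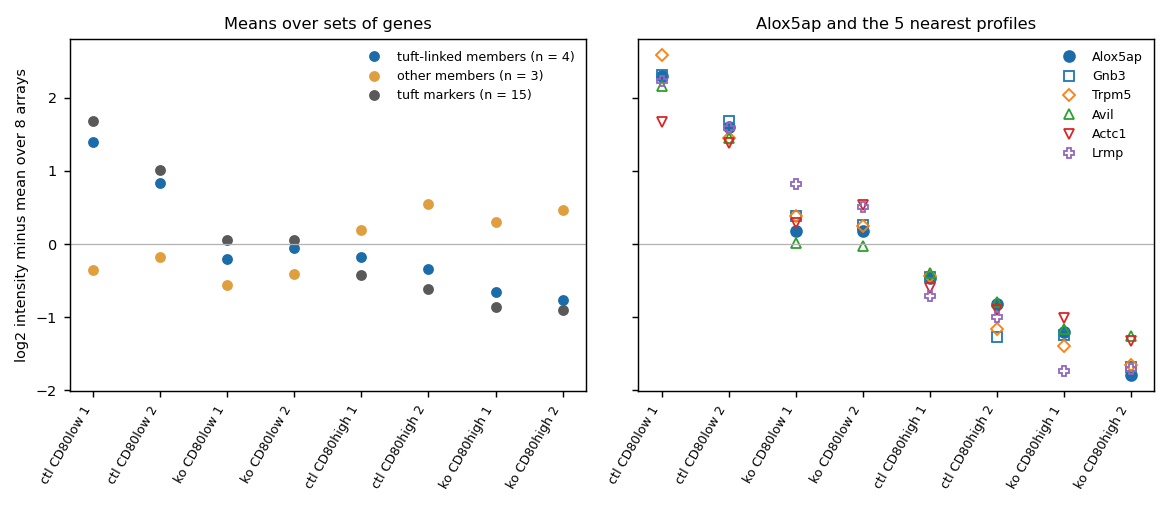
Log2 intensity minus the mean over all 8 arrays (vertical axis) by array (horizontal axis; ctl, control; ko, knockout). The left panel shows means over the 4 tuft-linked members, the 3 other members and the 15 tested tuft markers, the first and last of which are highest in the 2 control CD80low arrays. The right panel shows Alox5ap with its 5 nearest profiles.

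The mean of the 4 tuft-linked members, each centred on its own mean over the arrays, was 1.39 and 0.83 in control CD80low cells, -0.20 and -0.06 in knockout CD80low, -0.18 and -0.34 in control CD80high and -0.66 and -0.77 in knockout CD80high. The 15 tuft markers averaged 1.68 and 1.01, 0.05 and 0.05, -0.42 and -0.61, and -0.86 and -0.90 in the same order. Both means were highest in control CD80low replicate 1 and lowest in the knockout CD80high arrays. The 3 other members averaged -0.35 and -0.18, -0.56 and -0.41, 0.19 and 0.55, and 0.30 and 0.47, and were thus above their own mean in CD80high cells alone, with Ptgs2 at background in all CD80low arrays.

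By root mean square (RMS) difference of centred profiles over the 8 arrays, the genes nearest to Alox5ap among 14391 others were Gnb3 at 0.18, Trpm5 at 0.199, Avil at 0.224, Actc1 at 0.33 and Lrmp at 0.338. Gnb3 encodes a G protein subunit and Trpm5 a cation channel of taste and tuft cells, Avil encodes the actin-binding protein advillin, Actc1 is cardiac muscle actin and Lrmp is a membrane protein also known from lymphocytes. Gnb3, Trpm5 and Avil were on the tuft marker list, and the other 12 tested genes of that list ranked from 6 (Gnat3) to 10877 (Gfi1b), with Il17rb at 404 and Sucnr1 at 9630. Among the members Alox5 was nearest, at rank 23 (0.498), whereas Ltc4s ranked 4977 (1.199) and Hpgds 5561 (1.227). Tbxas1, Ptges and Ptgs2 ranked 9748, 11945 and 12090. Neither the tuft-linked members nor the tuft markers therefore shared 1 profile: Alox5 was near Alox5ap, and Ltc4s, Hpgds, Sucnr1 and Gfi1b were not. Sucnr1 was above background on only 5 of 8 arrays, which limits its profile.

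In CD80high cells, the same genotype comparison called 0 of the 7 members, beside 1 gene of all tested (0.00695%). Lower in knockout cells at an unadjusted p under 0.05 were 2 of the 7, Alox5ap and Hpgds, against 1% of all tested genes. Arrays did not overlap with the knockout lower for Alox5ap, Hpgds and Ptges, 3 of 7 against 15.1% of all genes, and with the knockout higher for Tbxas1, 1 of 7 against 13%. The median was -0.45 over the tuft-linked members, 0.04 over the other members and 0 over all genes.

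Alox5ap differed by -0.85 (interval -1.47 to -0.23) and Hpgds by -0.73 (interval -1.26 to -0.20) in CD80high cells, both with a limma adjusted p of 1. Without knockout CD80high replicate 2 the Alox5ap difference was -0.55, and with no background correction that of Hpgds was -0.41. Ltc4s gave -0.16 (interval -0.73 to 0.41) and Alox5 -0.09 (interval -0.71 to 0.53), neither interval holding the estimate from CD80low cells; the difference between subsets is tested below. Ptges gave -0.09, Ptgs2 0.04 and Tbxas1 0.10. The tuft markers had a median of -0.39 in this comparison, with 13 of 15 lower and 0 called. Lower at an unadjusted p under 0.05 were 4, against 1% of all tested genes.

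Averaged over both subsets, the genotype difference was -1.31 ± 0.198 (SE) for Alox5ap, ranking 10 of all genes with a limma adjusted p of 0.076. It was -0.92 for Hpgds (adjusted p = 0.154), -0.72 for Ltc4s (adjusted p = 0.401) and -0.45 for Alox5 (adjusted p = 0.951). With no background correction the Hpgds value was -0.50, and without both CD80low arrays of replicate 1 the Alox5 value was -0.12. For Ptgs2, Ptges and Tbxas1 it lay between -0.12 and -0.08. Of the 7 members 0 were called, against 0.00695% of all genes, and 4 were lower at an unadjusted p under 0.05, against 3.68%. The averaged Alox5ap difference passed with a trended and robust prior (adjusted p = 0.0177), with a replicate block (0.0345), with a block within each subset (0.0246) and without control CD80low replicate 2 (-1.48, adjusted p = 0.0398).

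The difference of the genotype effects between subsets was tested as an interaction, in which 0 genes were called by limma and 458 (3.18%) had an unadjusted p under 0.05. For Ltc4s it was 1.12 ± 0.364 (SE; unadjusted p = 0.0114, adjusted p = 1) and for Alox5ap 0.92 (unadjusted p = 0.0422, adjusted p = 1), positive values meaning that the knockout lay further below the control in CD80low cells. It was 0.73 for Alox5, 0.43 for Tbxas1, 0.37 for Hpgds, 0.24 for Ptgs2 and 0.02 for Ptges. A genotype effect that differs between subsets was therefore not established for any member by this test.

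CD80high and CD80low cells were compared within each genotype to describe how the genes vary with mTEC maturity. In control cells 2 of the 7 members were called lower in CD80high cells, Alox5ap and Alox5, against 19.4% of all tested genes, and 1 was called higher, Ptges, against 22.4%. Within knockout cells the same 2 were called lower, against 18.8%, and Ltc4s, Ptges and Tbxas1 were called higher, against 22.1%. Ptgs2 was called higher too, but it had been admitted to the test by its CD80high arrays alone, so it is not counted with them. These comparisons use the same CD80low and CD80high arrays as the genotype comparisons above, so their values are not independent of them.

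Alox5ap was lower in CD80high cells by 6.03-fold in control (-2.59 ± 0.28, SE; limma adjusted p = 4.48e-05) and by 3.19-fold in knockout (-1.67, adjusted p = 0.000886). Alox5 was lower by 5.68-fold in control (-2.51 ± 0.278, SE; adjusted p = 5.35e-05) and by 3.43-fold in knockout (-1.78, adjusted p = 0.000555). Both genes kept their calls in both genotypes under every alternative run. Ranges were -2.94 to -2.24 for Alox5ap and -2.81 to -1.85 for Alox5 in control cells. In knockout cells they were -1.97 to -1.35 and -2.13 to -1.24. The genes of 5-lipoxygenase and its activating protein were thus both lower in CD80high cells, with no array of either subset overlapping the other. Of the 15 tested tuft markers, 13 were called lower in CD80high control cells, with a median of -2.18, against 19.4% of all tested genes. In CD80high knockout cells 10 were called lower, with a median of -0.90, against 18.8%. Gfi1b and Sucnr1 had higher means in CD80high cells of both genotypes, Gfi1b by 0.40 (adjusted p = 0.163) in control and by 1.28 in knockout, where it was the 1 marker called higher (adjusted p = 0.000935).

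Ltc4s and Hpgds, the remaining tuft-linked members with a probe, were not called lower in CD80high cells. Ltc4s differed by -0.39 (interval -0.97 to 0.18; limma adjusted p = 0.247) in control cells and rose by 0.73 (adjusted p = 0.0444) in knockout cells. The rise lost its call in 10 alternatives, among them no background correction (adjusted p = 0.0548) and leaving out knockout CD80low replicate 2 (0.45, adjusted p = 0.261), knockout CD80high replicate 1 (0.55, adjusted p = 0.227) or replicate 2 (adjusted p = 0.0593), or either control CD80high array (adjusted p = 0.0645 for both). Hpgds differed by 0.01 (interval -0.52 to 0.54) in control and by 0.38 (adjusted p = 0.222) in knockout cells. Averaged over its probes, Hpgds passed in knockout cells, at 0.58 and an adjusted p of 0.0381. Its second probe, which gave 0.77, was above background on no knockout CD80low array. The averaged value is thus set in part against signal at background.

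Mast cell and basophil markers were far higher in CD80high cells, summing to 24229 and 23969 in control and 20911 and 23343 in knockout. No CD80low array exceeded 1579. In control cells 10 of 11 were called higher, against 22.4% of all tested genes. Some of the 10, among them Mcpt4, Tpsb2 and Fcer1a, were above background in CD80high arrays only. These entered the test through the subset in which they are higher, so the count is no independent support. Myeloid sums were 6285 to 7077 in CD80high against 1002 to 1419 in CD80low arrays. Eosinophil sums were 4554 to 6127 against 96 to 221, and platelet sums 461 to 631 against 41 to 86. Such sums weigh the brightest genes most. In CD80high arrays Hdc read 14.23 to 14.43 and led the mast cell list. Prg2 led the eosinophil list at 12.10 to 12.57, and Lyz2 the myeloid list at 11.81 to 12.25. Cpa3, a mast cell gene, was not called (0.08 in control and -0.43 in knockout). Among these cell types are ones that express Ltc4s, Hpgds and Tbxas1, and also Alox5 and Alox5ap, which were lower in CD80high cells. Mature mTECs, too, express many genes of other tissues. The part of blood cells or of such mTEC expression in the subset differences was not tested.

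The other members that were tested all had higher means in CD80high cells. Ptges rose by 1.83-fold in control (0.87 ± 0.248, SE; limma adjusted p = 0.0174) and by 1.86-fold in knockout (0.89, adjusted p = 0.0157). Its second probe gave 0.45 and 0.58 and was not called (adjusted p = 0.176 and 0.092 over probes). The control call was lost without control CD80low replicate 1 (0.59, adjusted p = 0.121) or without either control CD80high array (adjusted p = 0.0587 and 0.0984). In knockout cells it was lost without knockout CD80low replicate 1 (adjusted p = 0.117) or without either knockout CD80high array (adjusted p = 0.0685 and 0.0647).

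Ptgs2 was at least 1.62-fold higher in CD80high than CD80low control cells, and higher by at least 0.71 on the log2 scale in knockout cells. Such a bound sets the measured level against the lowest signal that counts as above background. It carries no allowance for the spread between arrays, and the log2 interval of Ptgs2 in control cells ran from 0.13 to 1.44. Because Ptgs2 entered the test through its CD80high arrays alone, a call between subsets carries no weight for it. Without control CD80high replicate 1, the lower of its 2 arrays, the control difference was 1.27. The knockout difference was 0.82 without knockout CD80high replicate 2 and 0.95 without knockout CD80low replicate 1. The second probe of Ptgs2, above background on no array, gave -0.02 in control and 0.02 in knockout cells. Tbxas1 differed by 0.25 (adjusted p = 0.315) in control cells and was at least 1.39-fold higher in CD80high knockout cells (adjusted p = 0.0142). Its second tested probe, above background on no CD80low array, gave 0.70 in control and 0.42 in knockout cells. That probe was not called in either genotype (limma adjusted p = 0.0529 and 0.222 over probes). The Tbxas1 call was lost without knockout CD80low replicate 2 (adjusted p = 0.0945) or knockout CD80high replicate 2 (adjusted p = 0.072).

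**Figure D4:**
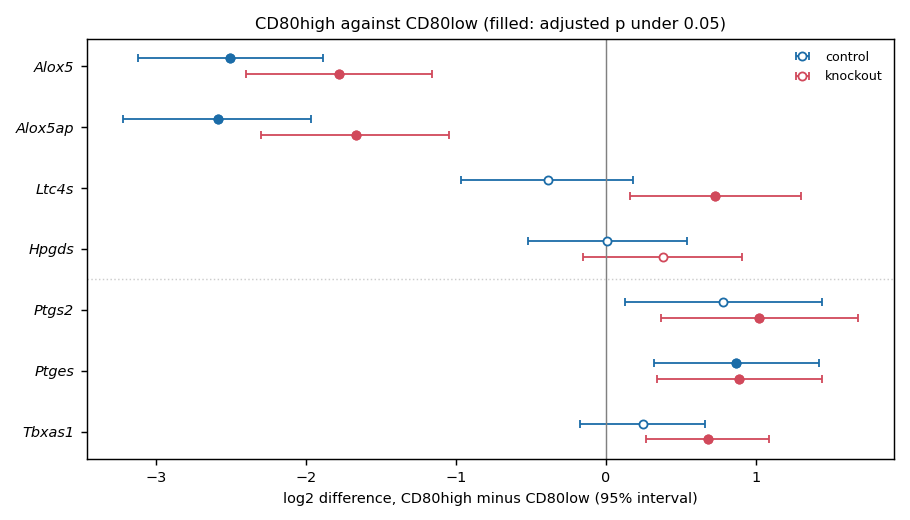
CD80high minus CD80low log2 difference (horizontal axis, with its 95% interval) of the 7 tested members in control (blue) and knockout cells (red); filled points mark an adjusted p under 0.05. Alox5 and Alox5ap lie below 0 in both genotypes, Ptges above 0 in both, and Ltc4s lies on opposite sides of 0 in control and knockout; Ptgs2 in both genotypes and Tbxas1 in knockout are set against CD80low arrays not above background.

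**Figure D5:**
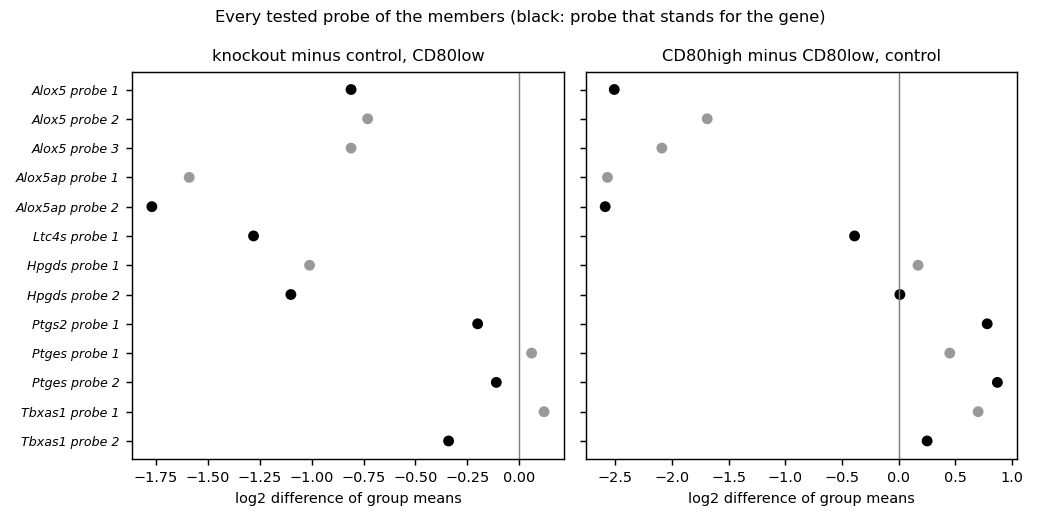
Log2 difference of group means (horizontal axis) for each of the 13 tested member probes (vertical axis), for knockout minus control in CD80low cells on the left and CD80high minus CD80low control cells on the right. Black points stand for the gene. Probes of Alox5, of Alox5ap and of Hpgds lie close together on the left, and the 2 tested probes of Ptges and of Tbxas1 lie on opposite sides of 0 there.

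The wider pathway, 60 further genes in 4 lists for fatty acid release, lipoxygenases and leukotriene processing, prostanoid enzymes, and receptors with transporters, had 58 genes with a probe and 46 tested. In each genotype comparison limma called 0 of the 46. At an unadjusted p under 0.05 there were 2 higher and 4 lower in CD80low, 0 higher and 1 lower in CD80high, and 1 higher and 3 lower in the average. The lower counts stand beside 4.34%, 1% and 3.68% of all tested genes. Their median genotype difference was 0.05 in CD80low and -0.02 in CD80high cells, so the wider lists did not show the low values of the tuft-linked members.

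Dpep1, a dipeptidase that converts leukotriene D4, had the smallest p in CD80low cells, with a genotype difference of -0.70 (limma adjusted p = 0.317). No knockout CD80low array was above background for it, and by its bound control was at least 1.06-fold higher. Dpep1 was followed by the leukotriene B4 receptor gene Ltb4r1 at 0.55 (adjusted p = 0.639) and the leukotriene C4 exporter gene Abcc1 at 0.50 (adjusted p = 0.721). For Abcc1 no control CD80low array was above background, and by its bound knockout was at least 1.29-fold higher. In CD80high cells the smallest p belonged to Hpgd, the prostaglandin-degrading dehydrogenase, at -0.68, then to Ltb4r1 at 0.32 and Ggt5, a leukotriene C4 processing enzyme, at 0.33, all with an adjusted p of 1. Averaged over subsets Ltb4r1 gave 0.43, Hpgd -0.41 and Dpep1 -0.33. The interaction had its smallest p-values for Dpep1 at 0.75, the phospholipase gene Pla2g3 at 0.68 and Abcc1 at -0.59, all with an adjusted p of 1. The averaged Dpep1 value and the interactions of Dpep1 and Abcc1 also use their CD80low arrays not above background.

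Between subsets many of these genes were called. Of the 46, CD80high control cells had 23 higher and 8 lower, with a median of 0.67 against -0.02 over all genes, and CD80high knockout cells had 22 higher and 8 lower, with a median of 0.68 against -0.03. The lower calls, 17.4% of the 46 in each genotype, were near the share of all tested genes, 19.4% in control and 18.8% in knockout, whereas the higher calls made up 50% and 47.8% against 22.4% and 22.1%. Of the higher calls, 8 of 23 in control and 7 of 22 in knockout cells were genes with no CD80low array above background. In control cells the phospholipase list, whose enzymes free fatty acids from membranes, had 9 higher and 1 lower of 12, with 5 of the 9 not above background in CD80low cells, and the lipoxygenase and leukotriene list 9 higher and 1 lower of 14. The prostanoid list had 3 higher and 4 lower of 10, and the receptor and transporter list 2 and 2 of 10. In knockout cells these counts were 7 and 1, 10 and 1, 2 and 3, and 3 and 3.

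The genes with the smallest p between control subsets included 4 secreted or cytosolic phospholipases: Pla2g1b rose by 4.91, Pla2g3 by 3.56 and Pla2g4f by 3.42, and Pla2g10 was at least 3.14-fold higher. Ptgds, the lipocalin-type prostaglandin D synthase, was at least 8.1-fold higher in CD80high control cells, in contrast to Hpgds, and Cyp4f14, a leukotriene B4 hydroxylase, at least 5.32-fold. Akr1c18, a ketosteroid reductase that also acts on prostaglandins, rose by 3.10 and Alox12b, an epidermal lipoxygenase, by 2.68. Ltb4r1 fell by 2.41 and Hpgd fell by 2.22 in CD80high control cells. The highest limma adjusted p among these 10 genes was 3.35e-05.

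In knockout cells Pla2g1b was at least 24.1-fold higher in the CD80high subset, Ptgds at least 8.32-fold and Cyp4f14 at least 4.81-fold. Pla2g3 rose by 4.24, Pla2g4f by 3.45, Akr1c18 by 3.65 and Alox12b by 2.59. Alox8, a lipoxygenase of mouse skin, was at least 2.6-fold higher, and Hpgd fell by 2.76. Ltb4r1 fell by 2.64. The enzymes that were higher in CD80high cells thus belonged to both branches, as did the genes called lower there in both genotypes. The latter were, beside Alox5 and Alox5ap, Hpgd and Ltb4r1 named above and, chosen after their values were seen, Ggt5 (-1.57 and -1.26), Ptges2 (-0.92 and -0.60), Ltb4r2 (-0.70 and -0.81) and Pla2g4b (-0.70 and -1.05), in control and knockout cells.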

How the data were processed

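Gene expression was measured on Illumina bead arrays. Per the labels' protocols, sorted cells gave total RNA, whose quality was checked before it was amplified and biotin-labelled. The deposited values are linear intensities, 1 per probe and array; the authors had scaled them by a method not stated in the labels. A second table has 16 columns that no label ties to a sample and was not used. Probes were named with the platform table (35667 with 1 symbol, 0 with several, 10422 unnamed). Intensities were corrected with normexp (offset 16), quantile-normalised over 8 arrays and log2-transformed with limma 3.58.1 in R 4.3.3, a second normalisation of values already scaled. For testing, the deposited intensity of a probe had to exceed the array's background mode plus 1.645 SD in both arrays of at least 1 group, which left 23378 probes and 14392 genes, each gene taking the probe of highest mean. The fit estimated the 4 group means and moderated the variances (degrees of freedom: residual 4, prior 6.15), with two-sided p-values. A level is given as "at least N-fold" higher where the lower group had no array above background. This bound uses group means and makes no allowance for their spread. The smallest p that an exact permutation test of 2 against 2 arrays can give is 0.333. The procedure was tested on simulated data. A bead array has no read depth; its precision is limited by probe brightness and array number.

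Named were all members, the wider pathway genes called in a comparison (at most 10 by smallest p, or the 3 smallest where 0 were called), the 5 profiles nearest to Alox5ap, and Hipk2. Gnat3, Gfi1b, Il17rb, Sucnr1, Hdc, Prg2, Lyz2, Cpa3, Kit, Cldn3, Mcpt4, Tpsb2 and Fcer1a were picked after their values were seen. The members, lists, tests and alternatives were chosen with earlier results of these data known. No source ties a replicate number to 1 animal or sort, so no replicate term was used. Alternatives changed the background correction, scaling, filter, prior, probe rule, replicate term and arrays.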

Additional observations from a re-analysis of the deposited data

Results flagged for a closer look

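Ltc4s in CD80high against CD80low cells ran in opposite directions in the genotypes, with both CD80high arrays below both CD80low arrays in control (-0.39) and above them in knockout (0.73). The difference of these differences, equal to the interaction, was 1.12 (limma, unadjusted p = 0.0114, adjusted p = 1), which does not pass over all genes.

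Tbxas1 in knockout against control cells ran in opposite directions in the subsets, lower in both knockout arrays of CD80low (-0.34) and higher in both of CD80high (0.10). The interaction was 0.43 (limma, unadjusted p = 0.128, adjusted p = 1). Knockout CD80low arrays were not well above background for Tbxas1, and its second tested probe gave 0.12 in CD80low cells. With the mean of its tested probes the CD80high difference was -0.03.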

How the results depend on the processing

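Across 868 recomputed member differences, 826 kept their direction and side of the threshold, 27 lost a call, 15 gained one and 0 called differences reversed; 22 differences that were not called turned sign. The genotype comparison in CD80low cells, with 1 gene called, gave 3 with an offset of 50, 3 from the deposited values on the log2 scale, 17 with median scaling, 12 with a trended and robust prior, 14 with a replicate block, 51 with a replicate block within subset, 5 without both CD80low arrays of replicate 1, and 1 to 22 when 1 array was left out. The averaged genotype comparison, also with 1, gave 6 with an offset of 50, 3 with no background correction, 4 from the deposited values, 16 with the trended and robust prior, 14 with a replicate block, 19 with the block within subset, 4 without both CD80low arrays of replicate 1, and 1 to 16 when 1 array was left out. The interaction, with 0, gave 1 with the block within subset, 3 without both CD80low arrays of replicate 1 and 0 to 2 when 1 array was left out. The cause of these shifts was not tested; with 1 array left out, the lone array of its group is assumed to vary like the other groups. Deviations of same-numbered replicates correlated at r = 0.51 between genotypes in CD80low and 0.47 in CD80high cells, over 2 pairs each, and at 0.07 to 0.14 otherwise. The Tbxas1, Ptgs2 and Ltc4s rises in knockout cells lost their calls with no background correction (limma adjusted p = 0.0557, 0.0699 and 0.0548) and from the deposited values (0.0569, 0.0868 and 0.0549). Signals near background limit Lta4h, Ptgs2 and Tbxas1.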
